A study of Mus musculus with 2 samples.

Results

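The expression of 10 acute-phase genes was compared in regenerating mouse liver: the serum amyloid A genes *Saa1*, *Saa2*, *Saa3* and *Saa4*, the orosomucoid genes *Orm1*, *Orm2* and *Orm3*, haptoglobin (*Hp*), hemopexin (*Hpx*) and lipocalin 2 (*Lcn2*). They were chosen by name, as secreted proteins of the acute-phase response, and all 10 were found by symbol among the 34745 genes listed. The study sequenced poly(A) RNA from the liver at day 3 after 2/3 partial hepatectomy (PH), in which about 70% of the liver is removed and the remnant grows back. The KO library came from miR-182-5p heterozygous knockout mice, which keep 1 intact allele and therefore some of the microRNA, and the WT library from wild-type controls. The mice of both groups were male, 8 to 10 weeks old and operated on, so the operation itself has no comparison here, and the number of mice behind a library is not given in the sources used here. The study's methods list C57BL/6 J mice but do not tie them to the WT library. The knockout is carried by every cell of the animal, not by hepatocytes alone.

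The acute-phase response is the change in plasma proteins that the liver makes after injury, surgery or infection. Interleukin 6 acts on hepatocytes through the receptor gp130 and the transcription factor STAT3, while interleukin 1 and tumour necrosis factor act through NF-kappa B, and C/EBP factors take part in both routes. Positive acute-phase proteins such as the serum amyloids and haptoglobin then increase in the blood, and negative ones such as albumin and transthyretin decrease.

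With 1 library per genotype there was no replicate error and no test. Intervals in parentheses after log2 fold changes are exact 95% binomial intervals, which cover counting error only. Libraries of 13247497 (KO) and 13163348 (WT) counts were scaled with TMM, since the share of mitochondrial transcripts was 51.7% in KO and 31.0% in WT. A log2 fold change is KO over WT on TMM-scaled counts, each plus a prior count of 0.5, and genes past a 2-fold change were called higher or lower. *Mir182* was not listed, so its level could not serve as a check of the genotype labels. In bulk liver, fewer cells of a type and less RNA per cell cannot be told apart.

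The sequence of the targeted microRNA and the start regions of 3 *Saa* genes are shown because the first defines the genotype and the others belong to the pair of genes with like values and to the one with a value apart. All are RefSeq sequences on GRCm38. Mature miR-182-5p (chr6:30165962-30165986, minus strand) is printed with its seed, bases 2 to 8, in capitals. The promoters run from 250 bases before to 50 after the start site, and capitals in them mark TTNNGNAA, a word of the kind that C/EBP factors bind, found on either strand. The windows are chr7:46742931-46743230 (minus strand) for *Saa1*, chr7:46751583-46751882 (plus strand) for *Saa2* and chr7:46715627-46715926 (minus strand) for *Saa3*.
miR-182-5p: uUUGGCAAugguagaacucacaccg
Saa1: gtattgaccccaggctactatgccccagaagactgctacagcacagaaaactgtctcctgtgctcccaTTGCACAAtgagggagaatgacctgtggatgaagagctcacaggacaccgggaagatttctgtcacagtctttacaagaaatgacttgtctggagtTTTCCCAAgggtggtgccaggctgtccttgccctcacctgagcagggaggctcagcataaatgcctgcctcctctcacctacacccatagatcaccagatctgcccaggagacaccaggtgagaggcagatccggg
Saa2: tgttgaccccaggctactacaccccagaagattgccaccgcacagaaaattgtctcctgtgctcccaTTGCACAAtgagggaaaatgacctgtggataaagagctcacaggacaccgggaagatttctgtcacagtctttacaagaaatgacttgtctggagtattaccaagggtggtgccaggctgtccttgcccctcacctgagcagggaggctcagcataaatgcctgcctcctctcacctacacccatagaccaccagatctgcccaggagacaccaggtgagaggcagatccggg
Saa3: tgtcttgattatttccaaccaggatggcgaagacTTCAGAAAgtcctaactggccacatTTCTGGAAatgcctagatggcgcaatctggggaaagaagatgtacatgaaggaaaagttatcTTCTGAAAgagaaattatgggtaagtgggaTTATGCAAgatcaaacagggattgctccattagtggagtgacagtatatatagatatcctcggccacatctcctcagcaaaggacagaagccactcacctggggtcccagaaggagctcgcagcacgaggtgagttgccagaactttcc

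The 8-base match to the seed, TTGCCAAA, occurred in the principal transcript of 0 of the 10 genes, against 7.56% of 22527 principal transcripts and 3.82% of 20027 3′ UTRs of the GENCODE M21 annotation. Absence of these letters says only that this word is not in those transcripts. The *Saa1* and *Saa2* promoters were identical at 95.3% of aligned positions, and *Saa1* and *Saa3* at 51.3%. A TTNNGNAA word lay in 8 of the 8 promoters that had a sequence, against 40.7% of 32851 promoters of the same length. *Saa3* held 4 of them, *Saa1* 2 and *Saa2* 1, and the most distant word of *Saa1* and that of *Saa2*, TTGCACAA, sat at nearly the same distance before the start. The STAT-type word TTCNNNGAA was in 0 of 8 promoters (8.30% of all), the shorter CTGGGA in 2 (*Saa3* and *Orm3*, 31.8% of all) and the kappa B consensus in 0 (4.51% of all). Such matches describe the letters of the window and are not evidence of binding. No sequence for *Orm1* and *Hp* was in the promoter table.

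Of the 10 genes, 1 (*Saa3*) was at least 2-fold higher in the KO library and 0 were at least 2-fold lower. Among all 13561 genes with at least 10 counts, 9.46% were higher by that measure, 9.94% lower and 19.4% either, so 1 of 10 is near the background. The median log2 fold change was 0.12, beside 0.00 for all genes, with 6 genes above 0 and 4 below. Apart from *Saa3*, the values ran from −0.34 (*Saa1*) to 0.39 (*Orm2*) and lay inside the middle 50% of all genes, −0.44 to 0.43. The 8 genes with at least 1000 counts were also set beside all 2090 genes past that minimum. Of the 2090, 4.31% were higher, 3.44% lower and 7.75% either, and 0 of the 8 were past 2-fold. This minimum lies below the 8126 counts of *Saa4*, the least abundant of the 8, so it does not match them for abundance. Scaled by total counts, the median of all genes moved to −0.60, 0 of the 10 were past 2-fold and 9 stood below 0, with a median of −0.48. The distance between their median and that of all genes was 0.12 under both scalings, which had to be so, since another scaling moves all genes nearly alike. Among all genes, the calls went from 1283 higher and 1348 lower with TMM to 624 and 3605 with total counts.

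**Figure D1:**
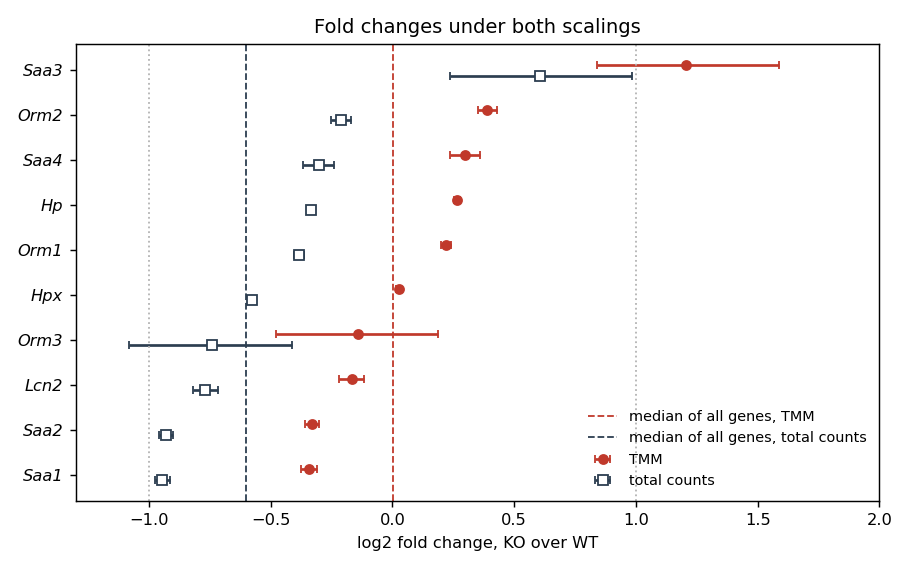
Log2 fold change, KO over WT, of the 10 acute-phase genes with TMM (red circles) and with total counts (open squares), from 1 library per genotype. Bars are exact 95% counting intervals, dashed lines the median of all genes under each scaling and dotted lines a 2-fold change; *Saa3* stands at 1.21 with TMM and 0.61 with total counts, and *Saa1* lowest under both.

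In FPKM, the authors' read counts scaled by gene length and library total, the genes ran from 11.9 to 5979 in the KO library and from 14.4 to 7999 in the WT library. *Hp*, *Hpx*, *Orm1*, *Saa2*, *Saa1* and *Orm2* were among the 56 highest of all genes in both libraries. In the KO library the order was *Hp*, *Hpx*, *Orm1*, *Saa2*, *Saa1*, *Orm2*, *Saa4*, *Lcn2*, *Saa3*, *Orm3*. In the WT library *Hpx* stood before *Hp* and *Orm3* before *Saa3*, and the rest kept their places. The counting intervals of FPKM of neighbours in the order overlapped only for *Orm3* (17.3 to 22.9) and *Saa3* (11.8 to 17.6) in the WT library. The 10 genes together took 289827 counts in the KO and 406844 in the WT library, which is 4.53% and 4.48% of the counts outside mitochondrial transcripts.

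**Figure D2:**
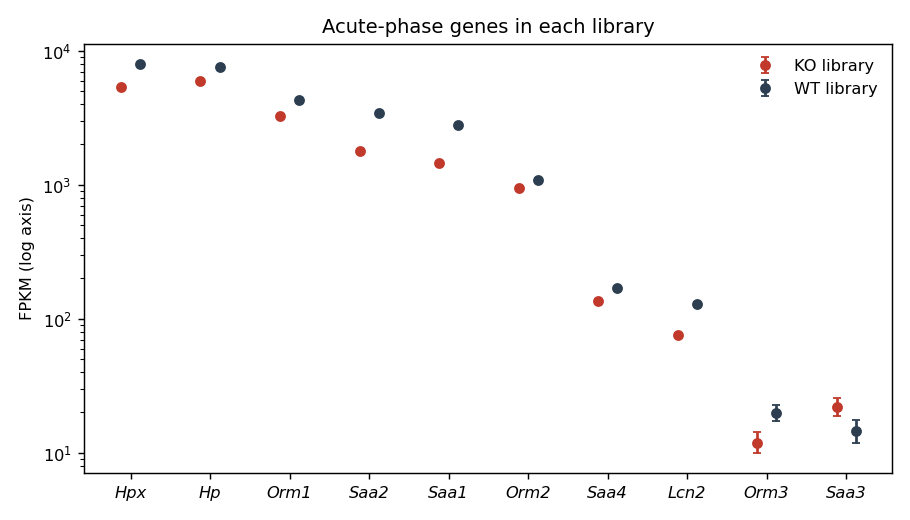
FPKM (log axis) of the 10 acute-phase genes in the KO library (red) and the WT library (dark blue), 1 library each, with exact 95% counting intervals as bars where larger than the point. FPKM carry no TMM scaling; 9 genes were lower in the KO library on this scale, and *Saa3* was higher, at 22.0 against 14.4.

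*Saa1* and *Saa2* encode the circulating acute-phase forms of serum amyloid A, an apolipoprotein carried on high-density lipoprotein. *Saa1* (ENSMUSG00000074115, minus strand, chr7:46740501-46742980) had 11663 counts in the KO and 22300 in the WT library, equal to 1455 and 2800 FPKM. Positions of genes are as deposited and of GRCm38 type. *Saa2* (ENSMUSG00000057465, plus strand, chr7:46751833-46754314) had 14533 and 27539 counts, or 1798 and 3430 FPKM. Both genes were lower in the KO library by nearly the same factor. The log2 fold change was −0.34 (−0.38 to −0.31) for *Saa1* and −0.33 (−0.36 to −0.30) for *Saa2*, well short of 2-fold, and −0.94 and −0.93 with total counts, close to it. Their coding sequences were 95.1% identical and 12.9% of the 51-base words of each transcript were shared with the other, so some reads could be assigned to either. The sum of both, which does not depend on that assignment, was 26196 (KO) against 49839 (WT) counts, at −0.34 (−0.36 to −0.31). The ratio of *Saa1* to *Saa2* counts was 0.803 in the KO and 0.810 in the WT library, a log2 difference of −0.01 (−0.06 to 0.03).

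*Saa4* encodes the constitutive form, which changes little in an acute-phase response. This gene (ENSMUSG00000040017, minus strand, chr7:46728017-46732543) had 3650 KO and 4476 WT counts, or 137 and 169 FPKM, and its log2 change was 0.30 (0.23 to 0.36). With total counts it stood at −0.30. Relative to *Saa4*, in the same cluster, the summed *Saa1* and *Saa2* counts were lower in the KO library by a log2 difference of −0.63 (−0.70 to −0.57), a value that no scaling changes.

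*Saa3* is known in mice as the form also made outside hepatocytes, in macrophages and adipocytes, and its value had the opposite sign to those of *Saa1* and *Saa2*. It (ENSMUSG00000040026, minus strand, chr7:46711998-46715676) had 155 counts in the KO and 101 in the WT library, equal to 22.0 and 14.4 FPKM. It was thus the only one of the 10 with more raw counts in the KO library. The log2 fold change was 1.21 (0.84 to 1.59), an interval that reaches below a 2-fold change, and 0.61 with total counts. Against the sum of *Saa1* and *Saa2*, *Saa3* was higher in the KO library by 1.55 (1.17 to 1.92) on the log2 scale. Even so it made up only 0.646% of the *Saa* FPKM in the KO and 0.225% in the WT library, while *Saa1* and *Saa2* made up 42.6% and 52.7% in the KO and 43.7% and 53.5% in the WT library. *Saa3* shares 1.58% of its 51-base words with *Saa1*, and the part of shared reads in its value was not tested.

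The markers of the other cells known to make *Saa3* were read beside it. Of 9 Kupffer cell and macrophage markers, 0 were at least 2-fold higher and 2 were lower, beside 9.46% and 9.94% of all genes. The 2 were *Marco* at −1.09 (−1.38 to −0.82) and *Adgre1*, named after its values were seen, at −1.15 (−2.24 to −0.22). *Adgre1* had only 12 against 41 counts. The summed level of the 9 was 158 CPM (counts scaled to a common library size with TMM) in the KO and 196 in the WT library, and none was at 0. The Kupffer cell lectin gene *Clec4f* had 600 and 1108 counts, with a log2 change of −0.29. Of the 9, 1 stood above 0 and 8 below, with a median of −0.29. With total counts the median was −0.89, and 0 were at least 2-fold higher and 3 lower. The gene above 0, *Lyz2*, was named after its values were seen and stood at 0.43 (0.17 to 0.68). Of 4 adipocyte markers, *Adipoq*, *Plin1* and *Lep* had 0 counts in both libraries and *Cfd* had 5 and 0. The 3 protein-coding genes closest to *Saa3* in log2 fold change and mean FPKM were *Zpr1* (1594 and 1043 counts, 1.20), *2310033P09Rik* (383 and 233, 1.31) and *Nat6* (1862 and 1153, 1.28), a likeness over 2 libraries only.

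All 4 *Saa* genes lie within 42317 bases of chromosome 7, with no other listed gene between them. The order along the chromosome is *Saa3*, *Saa4*, *Saa1*, *Saa2*, so that the log2 fold changes ran 1.21, 0.30, −0.34, −0.33 across the cluster.

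The orosomucoids, also called alpha-1-acid glycoproteins, are abundant plasma glycoproteins that bind drugs and lipids. *Orm1* (ENSMUSG00000039196, plus strand, chr4:63344560-63348163) had 33744 KO and 43736 WT counts, or 3287 and 4287 FPKM. *Orm2* (ENSMUSG00000061540, plus strand, chr4:63362449-63365878) had 9652 and 11102 counts, or 940 and 1088 FPKM. *Orm3* (ENSMUSG00000028359, plus strand, chr4:63356162-63359511) was scarce, with 122 and 203 counts, or 11.9 and 20.0 FPKM. The 2 abundant genes were slightly above the median of all genes in the KO library, at 0.22 (0.20 to 0.24) for *Orm1* and 0.39 (0.35 to 0.43) for *Orm2*, while *Orm3* stood at −0.14 with an interval that holds 0 (−0.48 to 0.19). With total counts all 3 were below 0, at −0.38, −0.21 and −0.74.

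*Orm1* gave 77.5% of the *Orm* FPKM in the KO and 79.5% in the WT library, and *Orm2* 22.2% and 20.2%. The count ratio of *Orm1* to *Orm2* was 3.50 in the KO and 3.94 in the WT library, a log2 difference of −0.17 (−0.22 to −0.13). *Orm1* against *Orm3* differed by 0.36 (0.03 to 0.70). The coding sequences of *Orm1* and *Orm2* were 89.9% identical and 20.0% of the 51-base words of each were shared, so these ratios depend on how shared reads were assigned. The sum of all 3 *Orm* genes was 43518 counts in the KO and 55041 in the WT library, with a log2 change of 0.25 (0.24 to 0.27), and −0.35 with total counts. The cluster spans 21319 bases and holds 1 further listed gene, the pseudogene *Gm11212*, with 0 KO and 6 WT counts.

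Haptoglobin and hemopexin protect tissue from the products of red cell breakdown, the first by binding free hemoglobin and the second by binding heme. *Hp* (ENSMUSG00000031722, minus strand, chr8:109575130-109579172) had 106369 KO and 133448 WT counts, or 5979 and 7549 FPKM. *Hpx* (ENSMUSG00000030895, minus strand, chr7:105591613-105600116) had 105025 and 155623 counts, or 5364 and 7999 FPKM. The level of *Hpx* was thus the higher of the 2 in the WT library and the lower in the KO library. The log2 fold change was 0.27 (0.25 to 0.28) for *Hp* and 0.03 (0.01 to 0.04) for *Hpx*, or −0.34 and −0.58 with total counts. Their count ratio went from 0.858 (WT) to 1.01 (KO), a log2 difference of 0.24 (0.22 to 0.26) that no scaling changes. Neither transcript shared a 51-base word with another gene.

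Lipocalin 2 binds bacterial siderophores and so withholds iron, and it is made by injured hepatocytes as well as neutrophils. *Lcn2* (ENSMUSG00000026822, minus strand, chr2:32384633-32388252) had 4914 KO and 8316 WT counts and a log2 fold change of −0.17 (−0.22 to −0.12), or −0.77 with total counts. Its deposited level was 76.2 FPKM in the KO and 130 in the WT library. That level rests on a length of 4867 bases, longer than the 3620 bases of the gene itself. Per kilobase of its principal transcript of 915 bases, the level in counts scaled to the library total was 405 and 690, which puts *Lcn2* above *Saa4* (132 and 162 on the same scale) in both libraries. The other 9 genes had FPKM lengths of 531 to 2015 bases, close to those of their transcripts. *Lcn2* was 0.17 (0.11 to 0.22) higher than the sum of *Saa1* and *Saa2* in its log2 change.

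Of 11 neutrophil markers, 8 had at least 10 counts. Among the 8, 0 were past 2-fold, beside 19.4% of all genes with at least 10 counts. Their counts summed over all 11 were 528 and 675, or 49.1 and 41.6 CPM. The defining marker *Ly6g* had 0 counts in both libraries. *Mpo* had 0 in the KO and 1 in the WT library and *Elane* 0 and 5, too few to compare. Of the 8, 7 stood above 0 and 1 below, with a median of 0.57 and values from −0.39 to 0.73, or a median of −0.01 and 3 above 0 with total counts. The most abundant, *S100a9* and *S100a8*, stood at 0.15 and 0.00, and *Csf3r*, named after its values were seen, at 0.61 (118 and 116 counts). The part of neutrophils in the *Lcn2* values was not tested. All 10 hepatocyte markers were measured at a summed 52681 and 53149 CPM, a sum to which *Alb* gave the most counts. Of the 10, 1 was past 2-fold, *Apob* at −2.96 (1517 and 17808 counts), beside 19.4% of all genes with at least 10 counts. In all 4 stood above 0 and 6 below, with a median of −0.16, or −0.76 with total counts. Named after their values were seen, *Cps1* stood at −0.63, *Ass1* at −0.51 and *Pck1*, the highest, at 0.49.

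Ratios between the genes do not depend on scaling, and they set *Saa1* and *Saa2* apart from *Hp*, *Saa4* and the *Orm* sum. The sum of *Saa1* and *Saa2* was lower in the KO library by a log2 difference of −0.60 (−0.63 to −0.58) against *Hp* and of −0.59 (−0.62 to −0.56) against the *Orm* sum. *Lcn2* lay closer to that sum, 0.17 (0.11 to 0.22) higher. Ratios that involve the *Saa1* and *Saa2* sum were chosen after the values had been seen. Among 24 other positive acute-phase genes, 12 above 0 and 12 below, some had log2 changes like those of *Saa1* and *Saa2*. Examples named after their values were seen were *Serpina3n* at −0.32 and *Apcs* at −0.31. Ordered by log2 fold change, the genes ran *Saa3*, *Orm2*, *Saa4*, *Hp*, *Orm1*, *Hpx*, *Orm3*, *Lcn2*, *Saa2*, *Saa1*. The difference between neighbours was within counting error for *Saa4* and *Hp*, for *Hpx* and *Orm3*, for *Orm3* and *Lcn2* and for *Saa2* and *Saa1*. Counting error is only part of the spread that separate animals would show, which was not measured.

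**Figure D3:**
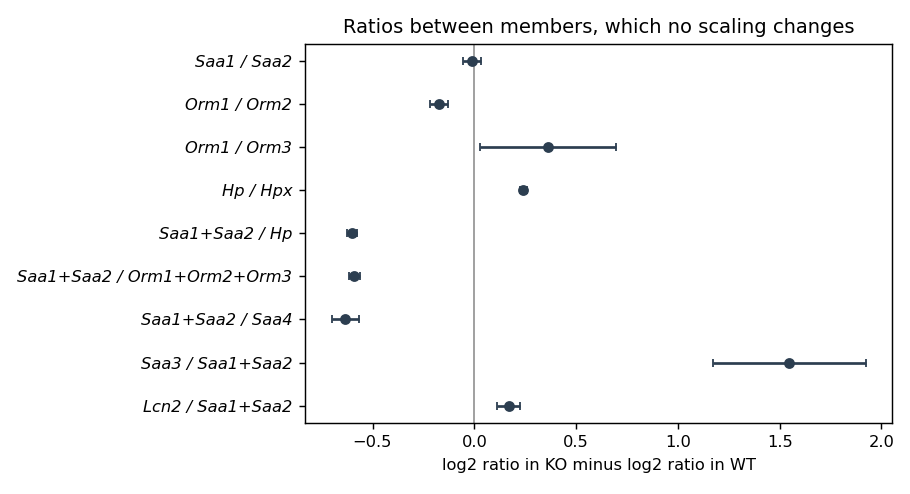
Log2 ratio of 1 gene or sum to another in the KO library minus the same log2 ratio in the WT library, with exact conditional 95% counting intervals. The ratio of *Saa1* to *Saa2* lies at −0.01, the 3 ratios with the *Saa1* and *Saa2* sum on top lie between −0.63 and −0.59, and that of *Saa3* to the sum lies at 1.55.

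Other positive acute-phase genes lay on both sides of the median of all genes, 12 above 0 and 12 below. Of 24 genes, 2 were at least 2-fold higher and 0 lower, beside 9.46% and 9.94% of all genes with at least 10 counts. The median of the 24 was −0.02. Of the 2 higher genes, *Il1rn*, the interleukin 1 receptor antagonist, was named after its values were seen and had 28 and 20 counts. The most abundant of the list, the complement gene *C3* (53567 and 84717 counts) and the fibrinogen gene *Fgb* (34379 and 53324), stood at −0.07 and −0.04. Other abundant genes of the list, named after their values were seen, lay on either side and short of 2-fold. The fibrinogen chains *Fga* (11763 and 25777 counts) and *Fgg* (16592 and 36539) were lower, at −0.54 and −0.55. The complement gene *C4b* (21323 and 21385 counts) and *Itih3* (14934 and 17586) were higher, at 0.59 and 0.36. The lowest values were those of *Serpina3m*, −0.95, and *Steap4*, −0.91. Of 8 negative acute-phase genes, 0 were past 2-fold in either direction, beside 19.4% of all genes with at least 10 counts. The median was 0.08, with *Alb* at −0.07 (339876 and 536544 counts) and *Apoa1* at 0.22 (115022 and 148641). The 8 were evenly divided, 4 above 0 and 4 below, and ran from −0.87 to 0.41. The lower ones, named after their values were seen, included the transferrin gene *Trf* at −0.87 (46003 and 126947 counts), *Rbp4* at −0.66 and *Ahsg* at −0.53. Beside *Apoa1*, those above 0, also named afterwards, were *Serpina6* at 0.41, *Apoa2* at 0.38 (44057 and 50895 counts) and *Ttr* at 0.23. With total counts the medians were −0.62 and −0.52, near the −0.60 of all genes, and 1 positive gene was past 2-fold higher, 4 positive and 3 negative genes past 2-fold lower.

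Of 15 cytokine and receptor genes, 10 had at least 10 counts. Among the 10, 2 were at least 2-fold higher and 0 lower, beside 9.46% and 9.94% of all genes with that minimum. The median was 0.53, or −0.07 with total counts. *Lifr*, a receptor chain that pairs with gp130, had 3277 KO and 1694 WT counts, giving a log2 change of 1.54 (1.46 to 1.63), or 0.94 with total counts. *Tnf*, named after its values were seen, had 17 and 0 counts. With the WT count set to a floor of 3 it was 8.54-fold higher, which leaves out the counting error of the KO count. Its exact interval starts at a log2 change of 2.64. *Il6*, *Lif* and *Il22* had 0 counts in both libraries, which allows up to 3 counts in each and does not show absence. *Il1rap*, the accessory chain of the interleukin 1 receptor, stood at 0.47 (731 and 796 counts). *Il6st*, the gene of gp130 itself, was named after its values were seen and stood at 0.02 (−0.16 to 0.20, 413 and 614 counts). Of the 10, 8 stood above 0 and 2 below. These 2, named after their values were seen, were the interleukin 6 receptor gene *Il6ra* at −0.97 (−1.29 to −0.68, 121 and 359 counts) and *Tnfrsf1a* at −0.53 (380 and 829). With total counts 1 of the list was higher and 2 were lower, *Il6ra* at −1.57 and *Tnfrsf1a* at −1.13.

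Of 15 transcription factors and feedback inhibitors, 2 were at least 2-fold higher and 0 lower, beside 9.46% and 9.94% of all genes. Their median was 0.13, or −0.47 with total counts. *Socs3*, a STAT3 target that shuts down gp130 signaling, had 305 and 228 counts, giving a log2 change of 1.01 (0.76 to 1.27), just past the limit, or 0.41 with total counts. *Socs1*, named after its values were seen, had 10 and 0 counts, 5.03-fold higher with the same floor. Its exact interval starts at a log2 change of 1.76. The abundant factors *Hnf4a* (3168 and 4601 counts) and *Cebpb* (1498 and 2505) stood at 0.05 and −0.15. Of the 15, 10 stood above 0 and 5 below. Further genes were named after their values were seen. *Stat3* stood at 0.05 (−0.10 to 0.20, 608 and 884 counts). *Cebpd* at −0.47 (−0.87 to −0.09) and *Nfkbia* at −0.38 (−0.64 to −0.12) were lower, and *Rela* at 0.60 (0.39 to 0.81) and *Nfkb1* at 0.48 (0.23 to 0.73) higher. With total counts 1 gene was higher and 1 lower. Taking *Tnf* and *Socs1* at the floor left both list medians at 0.53 and 0.13.

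Of 11 receptors and partners of the secreted proteins, 9 had at least 10 counts, with a median of −0.20, or −0.80 with total counts. Among the 9, 2 were at least 2-fold higher and 0 lower, beside 9.46% and 9.94% of all genes with that minimum. The 2 were scarce, and both were named after their values were seen. They were the serum amyloid receptor *Tlr2* with 21 and 11 counts (0.41 to 2.72) and the lipocalin 2 receptor *Slc22a17* with 21 and 15 (0.05 to 2.14). With a minimum of 50 counts, 0 of the list were past 2-fold. *Lrp1*, which takes up heme bound to hemopexin, stood at 0.53 (5260 and 5498 counts), and *Blvrb*, an enzyme of heme breakdown, at −0.01 (791 and 1202). Of the 9, 3 stood above 0 and 6 below. Those below, named after their values were seen, included *Cd163* at −0.57 (−1.02 to −0.13) and *Hmox1* at −0.45 (−0.83 to −0.09). *Scarb1* was also below, at −0.20 (−0.35 to −0.06). With total counts 0 of these partners were higher and 3 lower.

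**Figure D4:**
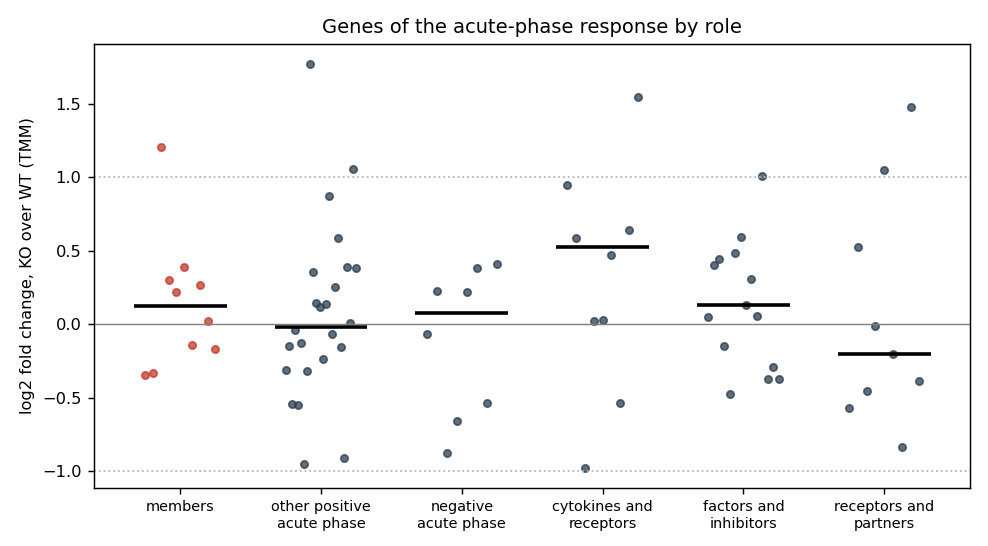
Log2 fold change (TMM), KO over WT, of each gene with at least 10 counts in the 10 acute-phase genes (red) and 5 further lists of the response (blue), with list medians as bars and a 2-fold change as dotted lines. *Tnf* and *Socs1*, at 0 counts in the WT library, count in the medians but have no point; the medians lie between −0.20 and 0.53.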

How the data were processed

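Liver poly(A) RNA of 1 KO and 1 WT library was sequenced on Illumina instruments. The authors deposited 1 table of unnormalized read counts per gene with the FPKM they derived from gene length and total counts. The submitters' processing notes list HISAT2 2.0.4, StringTie, edgeR and the build hg38, although the table holds mouse genes. Its coordinates are of GRCm38 type, and 80.8% of the 34267 identifiers found in GENCODE M21 have the same coordinates there (4 of the 10 acute-phase genes). Library totals were 13247497 and 13163348 counts. The kit did not mark strand as far as the methods describe it.

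Counts were scaled by TMM (edgeR 4.0.16, R 4.3.3) over genes with at least 10 counts in both libraries together, and log2 fold changes used a prior count of 0.5. DESeq2 1.42.0 served for alternative size factors. Intervals (exact binomial, and exact conditional for ratios), sequence searches and figures used Python 3.11.15, pandas 2.3.3, numpy 2.4.6, scipy 1.17.1 and matplotlib 3.10.9. As a check of the code, counts for KO over WT were simulated with counting error only and the library scaling taken as known. Of 200 genes with at least 100 expected counts and a change of 2 on the log2 scale, 200 were recovered among 13562. This cannot speak to the spread between animals or to the choice of scaling. Principal transcripts were those APPRIS marks in GENCODE M21, promoters and the microRNA came from RefSeq, and the kappa B consensus was searched on both strands like the other words. Named genes were the 10 themselves, up to 4 genes per further list past 2-fold with at least 100 counts over both libraries, its 2 genes with the most counts, genes within the *Saa* and *Orm* clusters, and the 3 genes nearest to *Saa3*. Members and lists were chosen with earlier results of these data known. Alternatives were total counts with and without mitochondrial genes, scaling by DESeq2 or upper quartile, FPKM plus 0.1 on the log2 scale, 5 as the prior count, and minimums of 1, 50 and 1000 counts. A result for 1 gene of the further lists is not reported here.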

Additional observations from a re-analysis of the deposited data

How the results depend on the processing

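No paired analysis was possible because KO and WT have 1 library each, and for the same reason no replicate could be left out. The median log2 fold change of the 10 genes was 0.12, and −0.48 with total counts or with FPKM, 0.034 with total counts without mitochondrial genes and 0.25 when centred on genes with an FPKM length under 2100 bases. This centring was added after the data had been seen, because the median rose with gene length from −0.13 to 0.13 over 5 length classes of genes with at least 100 counts. The number of genes at least 2-fold higher was 1, and 0 with total counts, with FPKM and with a minimum of 1000 counts, which leaves out *Saa3* and *Orm3*. With total counts and with FPKM, *Hpx* (−0.58), *Hp* (−0.34), *Orm1* (−0.38), *Saa4* (−0.30), *Orm2* (−0.21) and the *Orm* sum (−0.35) changed sign. With total counts without mitochondrial genes *Hpx* did, at −0.062. DESeq2 or upper-quartile scaling, 5 as the prior count and minimums of 1 or 50 counts left the number of the 10 genes past 2-fold at 1 higher and 0 lower. Among all genes, the numbers higher and lower moved by over 1.5 times from 1283 and 1348 with total counts (624 and 3605), FPKM (405 and 2934) and minimums of 1 (2269 and 2763), 50 (656 and 730) and 1000 counts (90 and 72), the last 3 because other genes are kept. Depth limits *Saa3* and *Orm3* most, with 101 to 203 counts.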
